A study of Mus musculus with 8 samples.

Results

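The lymphatic endothelial identity genes are a fixed group of 10 genes that mark the cells lining lymphatic vessels: Prox1, Foxc2 and Tbx1, which encode transcription factors, Lyve1, Pdpn and Itga9, which encode cell surface proteins, Reln, Mmrn1 and Nts, which encode secreted proteins, and Fxyd6, which encodes a small membrane protein. They were picked by name, and all 10 are among the 18835 genes with values of the 56941 genes listed in the deposited table. RNA was sequenced from the hearts of 8 mice (BALB/cAJcl, male, aged 10 weeks), all with autoimmune myocarditis after immunization with cardiac myosin. Of these, 4 received VEGF-C C156S by intraperitoneal injection at 1 µg per day from day 7 to day 10, and the other 4 received PBS over the same days. Hearts were taken in week 3, after the injections had ended, and each library was read as 1 animal. All controls were immunized too, so no healthy heart entered the comparison.

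Lymphatic vessels drain fluid and immune cells from tissue, and in the heart they run through the outer wall and the muscle. Their endothelium is set up and maintained by the transcription factor PROX1, and VEGF-C drives its growth by way of VEGFR-3, a receptor kinase encoded by Flt4. The C156S form of VEGF-C acts through VEGFR-3 and hardly through the blood vessel receptor VEGFR-2. The comparison asks whether the identity genes of these vessels stood at other levels in hearts of treated animals. Several of them are also made by other cells of the heart: Prox1 by cardiomyocytes, Lyve1 by resident macrophages, Pdpn by fibroblasts and mesothelium, Itga9 by smooth muscle and neutrophils, and Mmrn1 by platelets. In whole tissue, fewer cells of a type and less RNA per cell cannot be told apart.

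Library totals ran from 53.7 M reads to 76.8 M reads (M, 1e6 reads). Values are normalized counts, which are reads divided by 1 factor per library. Over all genes the groups lay apart on the first principal component (37% of variance), while on the second (19.7%) PBS replicate 1 scored 56.77 and the rest -25.6 to 5.82. Results that rest on that library are given with and without it. Cardiomyocyte markers summed to 2176610 to 2960970 normalized counts in PBS and to 2975780 to 3215540 in VEGF-C, ranges that did not overlap. Of these 6 markers 0 were called in the test used here, while the authors' deposited table calls Actc1 and Ryr2 as higher. Blood endothelial markers summed to 117596 to 130498 in PBS and to 122949 to 144434 in VEGF-C. Prox1 stood at 2444.5 to 3160.3 over all libraries. The share of lymphatic endothelium in the tissue was not measured. The title of the series names lymphatic endothelial cells, while every sample is labelled heart.

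A single identity gene, Itga9, rose with VEGF-C, and 0 fell. The test was limma on the log2 values of all genes, with Benjamini-Hochberg adjustment over all of them and a threshold of 0.05. By this rule 15.7% of all 18835 genes were called, 7.05% as higher and 8.61% as lower. The share among the identity genes, 10%, lies below the first of these and above the second. With 1 call in 10 genes it does not set the group apart from either. The groups did not overlap in Itga9 alone, 1 of 10 genes, while they did not overlap in 23% of all genes (11.5% with VEGF-C higher and 11.6% with VEGF-C lower). Fold changes were positive for 9 of the 10 with a median of 0.10 (log2), beside 50.2% positive and a median of 0.0013 over all genes. No filter on low values was used for this, and all 10 have a mean of at least 50 normalized counts.

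Upstream sequences of 4 of the genes are shown to set the marker Prox1 and the called gene Itga9 beside Reln and Mmrn1, the pair with the most similar course over the libraries. They are the 250 bases before the start of the RefSeq entry, 5′ to 3′ on the strand of the gene, from RefSeq on build GRCm38.p6, which is another build than that of the deposited values. Capitals mark matches to 1 of 6 motifs searched on both strands: the SOX factor letters AACAAT, the GATA factor letters AGATAA, the nuclear receptor letters AGGTCA, the ETS factor letters AGGAAG, the forkhead letters GTAAACA and the TATA box letters TATAAA. A match on the opposite strand appears as its reverse complement. The starts of the entries were not compared with gene starts, so a stretch may lie inside its gene rather than at its promoter.
Prox1 (chr1:190170828-190171077, - strand): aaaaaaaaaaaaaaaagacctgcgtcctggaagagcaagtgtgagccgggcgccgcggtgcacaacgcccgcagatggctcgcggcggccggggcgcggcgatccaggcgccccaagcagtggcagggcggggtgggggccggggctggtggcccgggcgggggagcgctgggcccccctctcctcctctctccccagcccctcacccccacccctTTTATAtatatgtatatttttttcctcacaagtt
Itga9 (chr9:118711442-118711691, + strand): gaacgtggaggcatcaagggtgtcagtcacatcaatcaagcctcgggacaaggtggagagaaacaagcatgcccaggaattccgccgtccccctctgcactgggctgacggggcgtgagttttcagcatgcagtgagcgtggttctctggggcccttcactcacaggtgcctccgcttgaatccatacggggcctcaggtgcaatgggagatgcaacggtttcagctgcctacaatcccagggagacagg
Reln (chr5:22344706-22344955, - strand): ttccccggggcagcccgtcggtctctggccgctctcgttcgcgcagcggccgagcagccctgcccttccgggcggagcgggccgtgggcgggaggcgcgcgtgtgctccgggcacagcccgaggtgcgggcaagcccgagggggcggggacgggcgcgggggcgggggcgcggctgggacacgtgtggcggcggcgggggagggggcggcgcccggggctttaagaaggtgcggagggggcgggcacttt
Mmrn1 (chr6:60944067-60944316, + strand): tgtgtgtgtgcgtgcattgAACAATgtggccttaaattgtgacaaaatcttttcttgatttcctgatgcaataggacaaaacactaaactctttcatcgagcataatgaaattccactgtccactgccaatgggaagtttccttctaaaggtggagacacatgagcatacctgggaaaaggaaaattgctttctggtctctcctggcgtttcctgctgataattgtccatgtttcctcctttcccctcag
The table held entries for 8 of the 10 genes, 10 in all since Prox1 and Tbx1 have 2 each, and the Prox1 sequence shown is the first. Lyve1 and Foxc2 have none. Prox1 held the TATA letters 34 bases before the start, on the opposite strand, and Mmrn1 the SOX letters 231 bases before it. Pdpn held the forkhead letters 153 bases and the nuclear receptor letters 34 bases before its start, and Nts the GATA letters at 131 bases. Among all 32851 entries of the table, 12.4% held the TATA letters, 9.42% SOX, 3.17% forkhead, 14% nuclear receptor, 9.99% GATA and 29.5% ETS. No motif was shared by 2 of the identity genes. The upstream sequence of Reln was the richest in G and C at 80%, and those of Mmrn1 and Pdpn the poorest at 42.4% and 43.2%. The median over all entries was 52.4%.

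Per length, the identity genes spanned a wide range of levels, with Fxyd6 highest and Tbx1 and Reln lowest. Levels here are normalized counts per kilobase of exon, with exon lengths from GENCODE M21. In the PBS group Fxyd6 stood at 1662 ± 526 per kilobase (SD, n = 4), Pdpn at 982 ± 189, Itga9 at 734 ± 66.1, Lyve1 at 645 ± 245 and Prox1 at 331 ± 41.3. Mmrn1 followed at 255 ± 104, Nts at 110 ± 26.3, Foxc2 at 99.7 ± 30.2, Reln at 38.1 ± 10.1 and Tbx1 at 35.7 ± 14.6. The ranges of neighbours in this order overlapped, as for Fxyd6 (874 to 1965) and Pdpn (709 to 1139), with 2 exceptions: every PBS library had more Mmrn1 (173 to 393) than Nts (74.3 to 138) and more Foxc2 (54.9 to 121) than Reln (29.3 to 52.4). In the VEGF-C group the order was the same but for 2 exchanges between such neighbours, of Prox1 (334 ± 27.7) with Mmrn1 (347 ± 154) and of Reln (41.0 ± 13.7) with Tbx1 (45.3 ± 15.9).

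**Figure D1:**
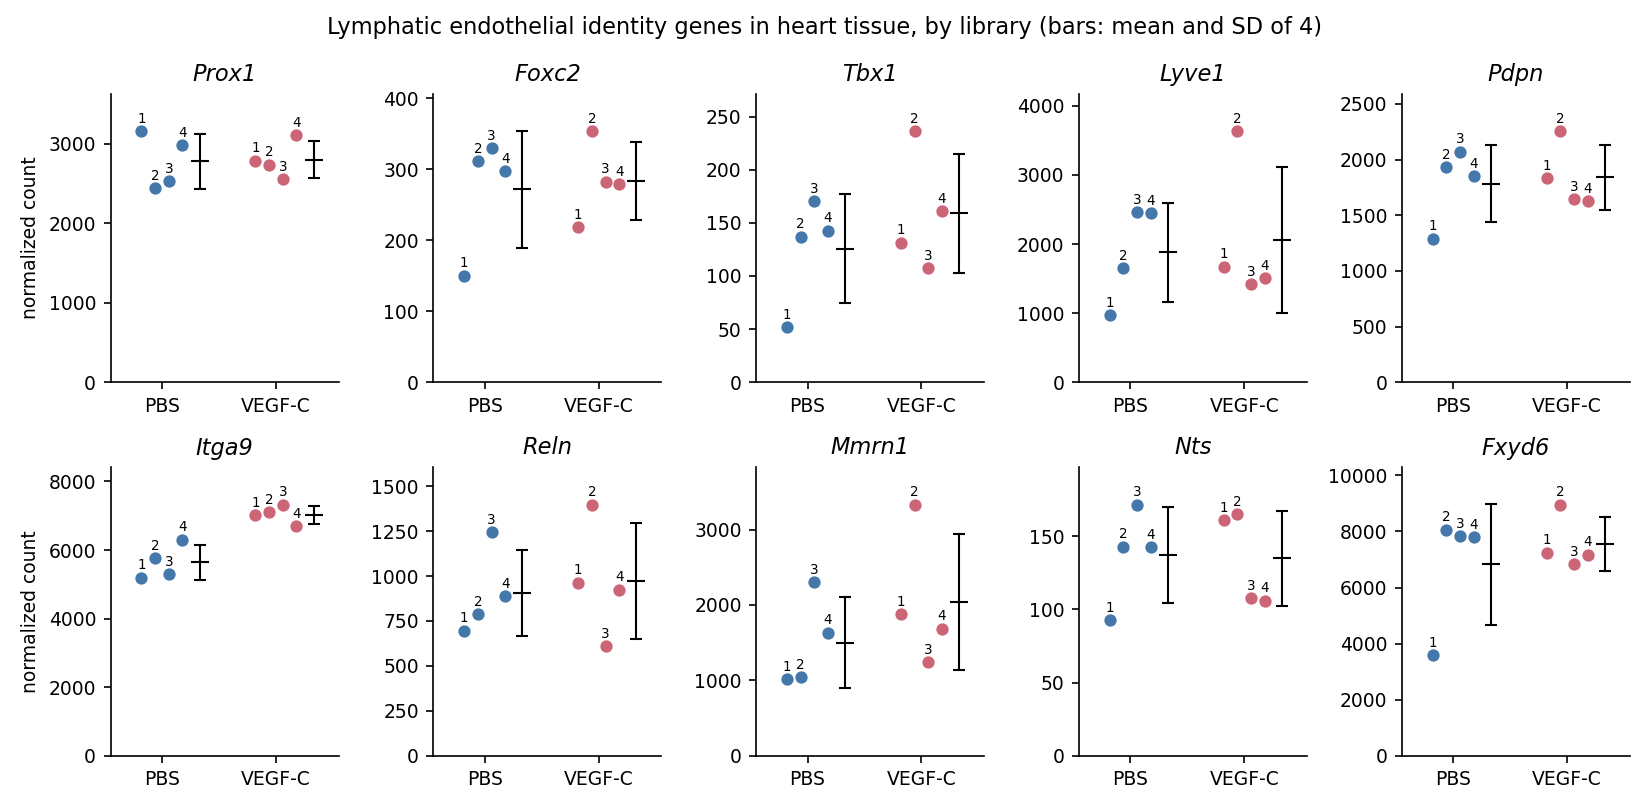
Normalized counts of the 10 identity genes in each library (vertical axis, starting at 0), with the number of the library beside each point and the mean and SD of 4 libraries as a bar. Itga9 is the only panel in which the groups part; in most others PBS replicate 1 is the lowest point and VEGF-C replicate 2 the highest.

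Among the transcription factors, Prox1, the master regulator of lymphatic endothelial fate, stood at nearly the same level in both groups. It measured 3160, 2445, 2530 and 2983 normalized counts in PBS replicates 1 to 4 and 2790, 2738, 2553 and 3112 in VEGF-C replicates 1 to 4. All 4 treated libraries lay inside the range of the controls. The fold change was 0.014 ± 0.10 (log2, SE; 95% interval -0.21 to 0.24; limma adjusted p = 0.938). Cardiomyocytes are another source of Prox1 in the heart. Of 6 cardiomyocyte markers 0 were called in limma and 5 had positive fold changes (median 0.20). Their sum was higher in every treated library than in any control. The authors' deposited table calls Actc1 (0.467, adjusted p of 0.00152) and Ryr2 (0.391, 0.0378) of these markers as higher. The part of cardiomyocytes in the level of Prox1 was not tested. An antisense gene, Prox1os, overlaps Prox1 on the other strand, at 53.97 normalized counts in PBS and 52.45 in VEGF-C.

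Foxc2, a forkhead factor needed for lymphatic valves, was read at 150, 311, 329 and 297 normalized counts in the PBS libraries and at 218, 353, 282 and 279 in the VEGF-C libraries. Tbx1, a T-box factor of lymphatic and pharyngeal development, had 52.1, 137, 171 and 143 in the PBS libraries and 131, 236, 108 and 161 in the VEGF-C libraries. In both genes the groups overlapped and PBS replicate 1 was the lowest of the 8 libraries. The fold changes were 0.10 ± 0.25 for Foxc2 (limma adjusted p = 0.813) and 0.39 ± 0.36 for Tbx1 (0.485), with 95% intervals of -0.45 to 0.65 and -0.41 to 1.19. Without PBS replicate 1 the value of Foxc2 was -0.16 and that of Tbx1 0.029.

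Of the surface proteins, Itga9 encodes integrin alpha 9, which binds fibronectin in lymphatic valve leaflets, and it had the smallest SE of the 10 genes. It measured 5190, 5768, 5304 and 6305 normalized counts in the PBS libraries and 7022, 7103, 7324 and 6691 in the VEGF-C libraries. The lowest treated library thus stood above the highest control. Its mean went from 5642 ± 508 to 7035 ± 263 (SD, n = 4), and its log2 fold change was 0.32 ± 0.08 (SE; 95% interval 0.15 to 0.49; limma adjusted p = 0.0208). The authors' deposited table gives 0.318 with an adjusted p of 0.00327. The call was lost without VEGF-C replicate 3 (limma adjusted p = 0.0632) and when libraries were scaled by their totals (0.231), a scaling that moved the median of all genes from 0.0013 to -0.19. Under that scaling the fold change of Itga9 was 0.13.

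Smooth muscle is another source of Itga9 in the heart. Of 6 markers of smooth muscle and pericytes 0 were called, and their sum ran from 48836 to 97603 normalized counts in PBS and from 78278 to 90138 in VEGF-C. Neutrophil markers, a further source, summed to 15283 to 40687 in PBS and 10049 to 31194 in VEGF-C, and 1 of 5 was called, as lower. The part of these cells in the difference of Itga9 was not tested. Relative to the mean of 8 blood endothelial markers, Itga9 had log2 ratios of -1.0 to -0.67 in PBS and -0.76 to -0.54 in VEGF-C, which overlap, with means 0.23 apart. Its beta partner Itgb1 had a fold change of 0.26 ± 0.09 with groups that did not overlap, and did not pass (limma adjusted p = 0.0675). For Itgb1 the authors' deposited table gives an adjusted p of 0.01825.

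Lyve1, a hyaluronan receptor of lymphatic capillaries and of resident macrophages, had one of the widest spreads. The PBS libraries held 973, 1647, 2458 and 2452 normalized counts and the VEGF-C libraries 1672, 3635, 1423 and 1507. The highest treated library, replicate 2, stood above all others and the other 3 lay within the range of the controls. The fold change was 0.11 ± 0.35 (95% interval -0.66 to 0.88; limma adjusted p = 0.860), an interval that takes in the fold change of Itga9. Its sign turned to -0.18 without PBS replicate 1 and to -0.20 without VEGF-C replicate 2. Of 9 resident macrophage markers 2 were called, both lower, namely Folr2 (-0.70) and Cd163 (-0.60), and 7 of the 9 had negative fold changes (median -0.21). Their mean log2 level was 10.96 to 11.46 in PBS and 10.66 to 11.04 in VEGF-C. Their summed level, to which Gas6 and Csf1r add most, was 43214 to 51702 in PBS and 41517 to 51492 in VEGF-C. Their part in the level of Lyve1 was not tested.

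Pdpn encodes podoplanin, a mucin-like protein that binds the platelet receptor CLEC-2. Counts were 1288, 1932, 2070 and 1848 in the PBS libraries and 1834, 2255, 1645 and 1627 in the VEGF-C libraries. The groups overlapped, with PBS replicate 1 lowest and VEGF-C replicate 2 highest of the 8. The fold change was 0.054 ± 0.16 (95% interval -0.29 to 0.40; limma adjusted p = 0.843), and -0.095 without PBS replicate 1. The receptor gene Clec1b had a fold change of 0.041 ± 0.37 (0.954). Mesothelial markers, another source of Pdpn, summed to 4907 to 16069 in PBS and to 2795 to 12211 in VEGF-C. Fibroblast markers, a further source, summed to 479080 to 696345 in PBS and to 648885 to 840048 in VEGF-C. The collagen genes Col3a1 and Col1a1 add most to this sum. Of the 7 markers 1 was called, Col1a1, as higher (0.69), and the median fold change was 0.092. The part of these cells in the level of Pdpn was not tested.

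The 3 genes of secreted proteins did not pass either. Mmrn1, which encodes multimerin 1, a protein of endothelium and platelet granules, had the largest fold change of the group, 0.43 ± 0.32 (95% interval -0.28 to 1.13; limma adjusted p = 0.383). Its counts were 1017, 1043, 2304 and 1632 in the PBS libraries and 1877, 3331, 1244 and 1686 in the VEGF-C libraries, so that 3 of 4 treated libraries lay within the range of the controls. Without VEGF-C replicate 2 its fold change was 0.16, and without PBS replicate 1 it was 0.27. Of 5 platelet and megakaryocyte markers 1 was called, the platelet chemokine gene Ppbp, as higher (1.498). All 5 had positive fold changes (median 0.96). Their sum, to which Pf4 and Itga2b add most, was 1322 to 1419 in PBS and 1165 to 2184 in VEGF-C. The authors' deposited table also calls Gp9 (1.75, adjusted p of 0.00317) and Treml1 (1.17, 0.0499) as higher, but not Pf4 or Itga2b. The part of platelets in the values of Mmrn1 was not tested.

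Reln encodes reelin, a large matrix protein that lymphatic endothelium secretes. Its counts were 696, 788, 1244 and 887 in the PBS libraries and 964, 1398, 608 and 924 in the VEGF-C libraries, with a fold change of 0.080 ± 0.24 (95% interval -0.46 to 0.62; limma adjusted p = 0.851). It was the only gene of the 10 that was lowest in VEGF-C replicate 3. Nts, the precursor of the peptide neurotensin, had 92.7, 143, 172 and 143 counts in the PBS libraries and 161, 165, 108 and 106 in the VEGF-C libraries. It was the only identity gene with a negative fold change, -0.023 ± 0.23 (95% interval -0.54 to 0.49; limma adjusted p = 0.957). That value was -0.20 without PBS replicate 1, where 6 of the 10 genes were negative, and 0.092 without PBS replicate 3.

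Fxyd6, a regulator of the sodium pump, had the highest level per length of the 10 genes. The PBS libraries held 3591, 8068, 7840 and 7807 and the VEGF-C libraries 7241, 8957, 6834 and 7176. PBS replicate 1 was at less than any other library, and the remaining controls lay within the range of the treated libraries. The fold change was 0.21 ± 0.23 (95% interval -0.31 to 0.73; limma adjusted p = 0.571) and became -0.074 without PBS replicate 1.

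**Figure D2:**
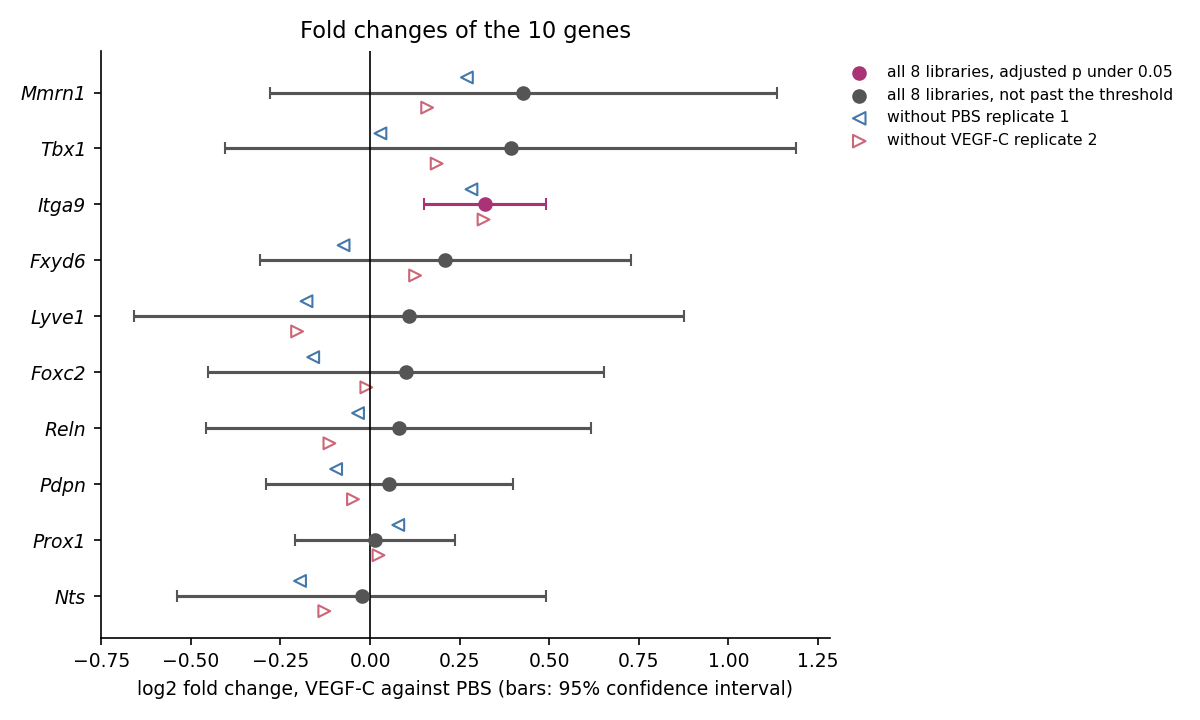
Log2 fold changes of the 10 genes, VEGF-C against PBS, with 95% confidence intervals from all 8 libraries; open triangles show the value without PBS replicate 1 and without VEGF-C replicate 2. Only the interval of Itga9 leaves out 0, and 5 of the 10 signs change without PBS replicate 1.

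The direction of the group as a whole rested on single libraries. Without PBS replicate 1 the number of positive fold changes went from 9 to 4 of 10 and the median from 0.10 to -0.054, with the signs of Lyve1, Pdpn, Reln, Foxc2 and Fxyd6 turned. Without VEGF-C replicate 2 it was 5 of 10 with a median of 0.0067. Without VEGF-C replicate 3 all 10 were positive with a median of 0.25, and with library totals 4 of 10 were positive with a median of -0.085.

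Most of the identity genes varied together from library to library. PBS replicate 1 was the lowest of the 8 libraries in 8 of the 10 genes, where it was the lowest in 14.8% of all genes, and VEGF-C replicate 2 was the highest in 7 of the 10, where it was the highest in 12.3% of all genes. Measured from the mean of its own group, the median of the 10 genes was -0.49 (log2) in PBS replicate 1, 0.061 in replicate 2, 0.34 in replicate 3 and 0.18 in replicate 4. In the treated group it was -0.011 in replicate 1, 0.32 in replicate 2, -0.22 in replicate 3 and -0.069 in replicate 4. In VEGF-C replicate 2, 9 of 10 genes stood above the group mean, and in PBS replicate 1, 9 of 10 stood below it. About the same share of all genes, 49.7% and 51.9%, stood above the mean in these libraries.

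**Figure D3:**
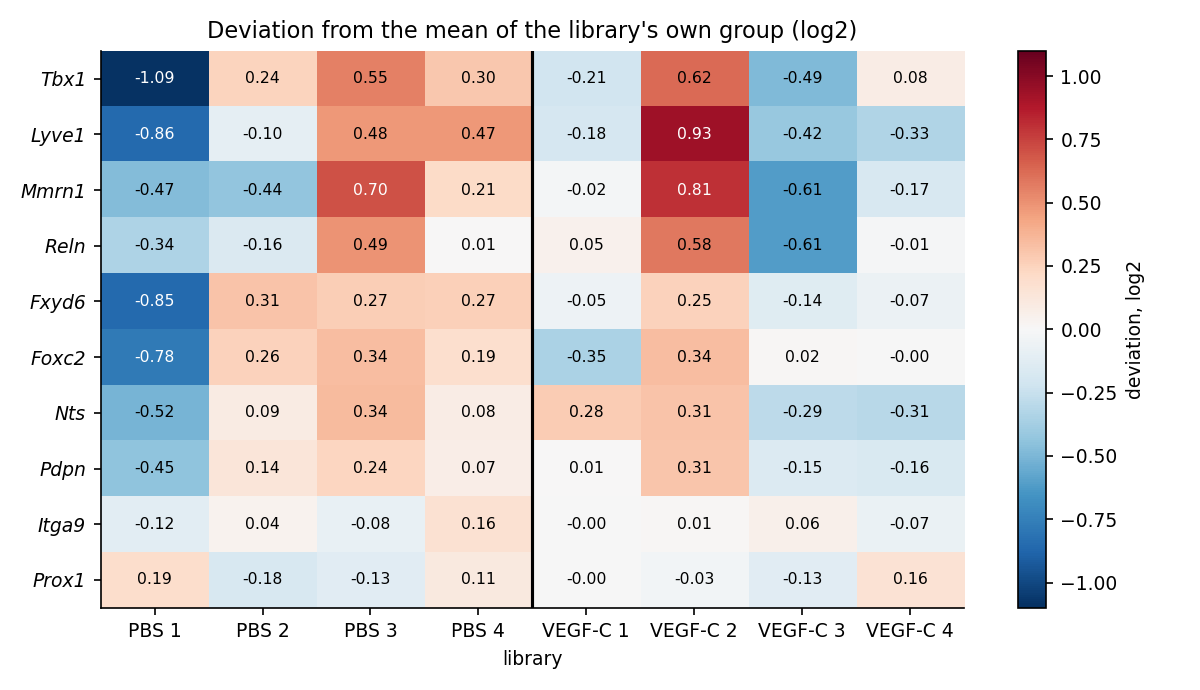
Deviation of each identity gene (rows) from the mean of the library's own group (columns, log2; red above, blue below). The upper 8 genes share low values in PBS replicate 1 and high values in PBS replicate 3 and VEGF-C replicate 2, while Itga9 and Prox1 deviate little.

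Likeness was taken as Pearson's r over the 8 libraries after the group means were subtracted, as a description with no test, since all points share their library and its scaling. All 28 pairs among the 8 genes other than Prox1 and Itga9 were positive, from 0.52 to 0.96, and from 0.077 (Foxc2 and Nts, at 0.63 with all libraries) to 0.95 without PBS replicate 1. Reln and Mmrn1 were the closest pair (r = 0.96; 0.95 without PBS replicate 1), followed by Fxyd6 and Tbx1 (0.94; 0.87) and by Foxc2 and Fxyd6 (0.93; 0.68). Lyve1 ran with Pdpn (0.91; 0.87) and with Mmrn1 (0.89; 0.91). Prox1 stood apart: its r with the other 9 was negative throughout, from -0.61 with Pdpn to -0.098 with Mmrn1, though without PBS replicate 1 the median of the 9 was 0.11. Itga9 had a median of 0.31 with the other 9, and -0.16 without that library.

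The likeness search took in 13713 other genes, those with a mean normalized count of at least 50 once predicted genes and immunoglobulin or T cell receptor segments were left out. Those most like Lyve1 were Tmem100, an endothelial membrane protein (r = 0.99), Ccn5, a matricellular protein (0.98), and Lrrc4 (0.98). Those most like Prox1 were Gzf1, Qtrt2 and Mapk14, the last encoding the kinase p38 alpha (0.99, 0.98 and 0.97). Those most like Itga9 were Zfp157, the smooth muscle actin gene Acta2 and the deacetylase gene Sirt6 (0.96, 0.95 and 0.95). None of these 9 genes was called between the groups (limma adjusted p from 0.102 to 0.781). They were picked as the highest r among 13713 genes over 8 libraries, where values this high can also arise by chance.

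Markers of other cell types also differed between the libraries in which the identity genes were high or low. Adipocyte markers (5 of 5 with values, 0 called) summed to 6275 normalized counts in PBS replicate 1 and to 52.0 in VEGF-C replicate 2. They summed to 1733 to 2932 in the other controls and to 106 to 3339 in the other treated libraries. Of these markers 2, Lep and Ucp1, had no read in 2 libraries each. The lung gene Sftpc had none in 3 libraries, and the listed markers Gp1bb and Scgb1a1 had no values. Every other marker was read in all libraries. Mesothelial markers (5 genes, 0 called) summed to 4907 in PBS replicate 1, the lowest control, and to 12211 in VEGF-C replicate 2, the highest treated library. VEGF-C replicate 4, at 2795, was the lowest of all. Fold changes were negative for all 5 adipocyte markers (median -2.55) and for all 5 mesothelial markers (median -0.74). Fibroblast markers (7 genes, 1 called, Col1a1 as higher) were at 479080 in PBS replicate 1 and at 647454 to 840048 in the others. Blood endothelial markers (8 genes, 1 called, Flt1 as higher) stayed between 117596 and 144434. The part of any of these cells in the spread of the identity genes was not tested.

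**Figure D4:**
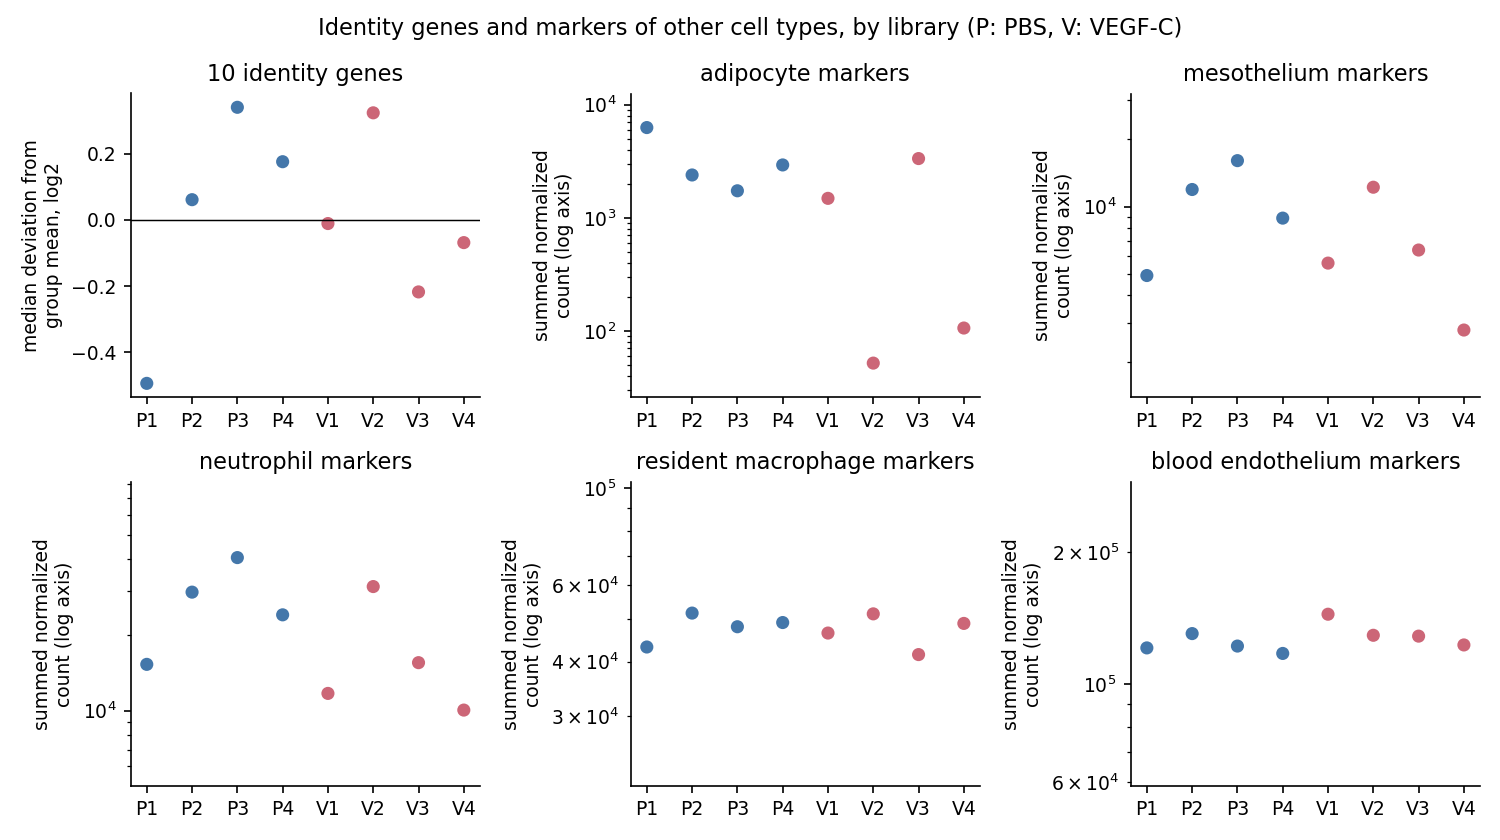
Median deviation of the 10 identity genes from their group mean (first panel, log2) and summed normalized counts of markers of 5 other cell types (log axes), in PBS libraries P1 to P4 and VEGF-C libraries V1 to V4. Mesothelium and neutrophil markers, like the identity genes, are low in P1 and high in P3 and V2, adipocyte markers are highest in P1 and lowest in V2, and blood endothelial markers vary little.

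Around the identity genes, 3 lists of lymphatic genes were examined. Of 15 genes of lymphatic growth factor signalling 3 rose and 0 fell (median 0.11): the VEGF-C receptor Flt4 and the 2 parts of the adrenomedullin receptor, Calcrl and Ramp2. Flt4 had 3299, 3658, 4272 and 3919 normalized counts in the PBS libraries and 5534, 5800, 4593 and 4138 in the VEGF-C libraries; only treated replicate 4 fell inside the range of the controls (0.40 ± 0.12, limma adjusted p = 0.0482). Calcrl rose by 0.49 ± 0.15 (0.0456). Ramp2 had 3151, 4481, 3841 and 3869 counts in PBS and 5268, 4947, 4572 and 5082 in VEGF-C, groups that did not overlap (0.38 ± 0.10, limma adjusted p = 0.0324). Their ligand Adm had 0.52 ± 0.16 and did not pass in limma (adjusted p = 0.0571), while the authors' deposited table gives 0.0157. The ligands Vegfc (0.052 ± 0.21) and Vegfd (-0.21 ± 0.21), the coreceptor Nrp2 (0.20 ± 0.11) and the processing genes Ccbe1 (-0.20 ± 0.19) and Adamts3 (0.027 ± 0.16) did not pass. These 3 calls lay close to the threshold. Flt4 lost its call in 12 of 19 alternatives, among them TMM factors (limma adjusted p = 0.0510), voom (0.0519) and voom with quality weights (0.0513). In all, 0 of the 15 genes passed with library totals, with upper-quartile factors, without a variance trend, or on leaving out treated replicate 1 or treated replicate 3. On leaving out control replicate 1, 2 or 4, or treated replicate 2, 1 passed; adjusted p-values in limma reached 0.118 for Flt4, 0.110 for Calcrl and 0.0814 for Ramp2 with 1 library out.

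Of 22 other genes of lymphatic fate, valves and markers 2 rose and 0 fell (median 0.10). Foxc1, the close relative of Foxc2, had 218, 292, 333 and 290 normalized counts in PBS and 382, 494, 547 and 376 in VEGF-C, groups that did not overlap, with a fold change of 0.66 ± 0.17 (limma adjusted p = 0.0280). Nfatc1, a transcription factor that works in valve formation, had 2002, 2276, 2127 and 2218 in PBS and 2662, 2667, 2835 and 2991 in VEGF-C (0.37 ± 0.07, limma adjusted p = 0.00928). Groups also did not overlap in Nr2f2, the PROX1 partner COUP-TFII (0.33 ± 0.11, adjusted p = 0.0600), and Ackr2, a scavenging chemokine receptor of lymphatics (0.55 ± 0.18, 0.0668), which did not pass in limma. For them the authors' deposited table gives adjusted p-values of 0.0334 (Nr2f2) and 0.0242 (Ackr2). The lymphatic chemokine gene Ccl21a (0.27 ± 0.28), whose near-identical copies may share its reads, and Sox18, the factor that induces Prox1 (0.36 ± 0.15), did not pass. Foxc1 missed the threshold with library totals (limma adjusted p = 0.0888) and when control replicate 2 or 4, or treated replicate 2 or 3, was left out (up to 0.0779). Nfatc1 missed it only with library totals (0.120), among the alternatives tried.

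**Figure D5:**
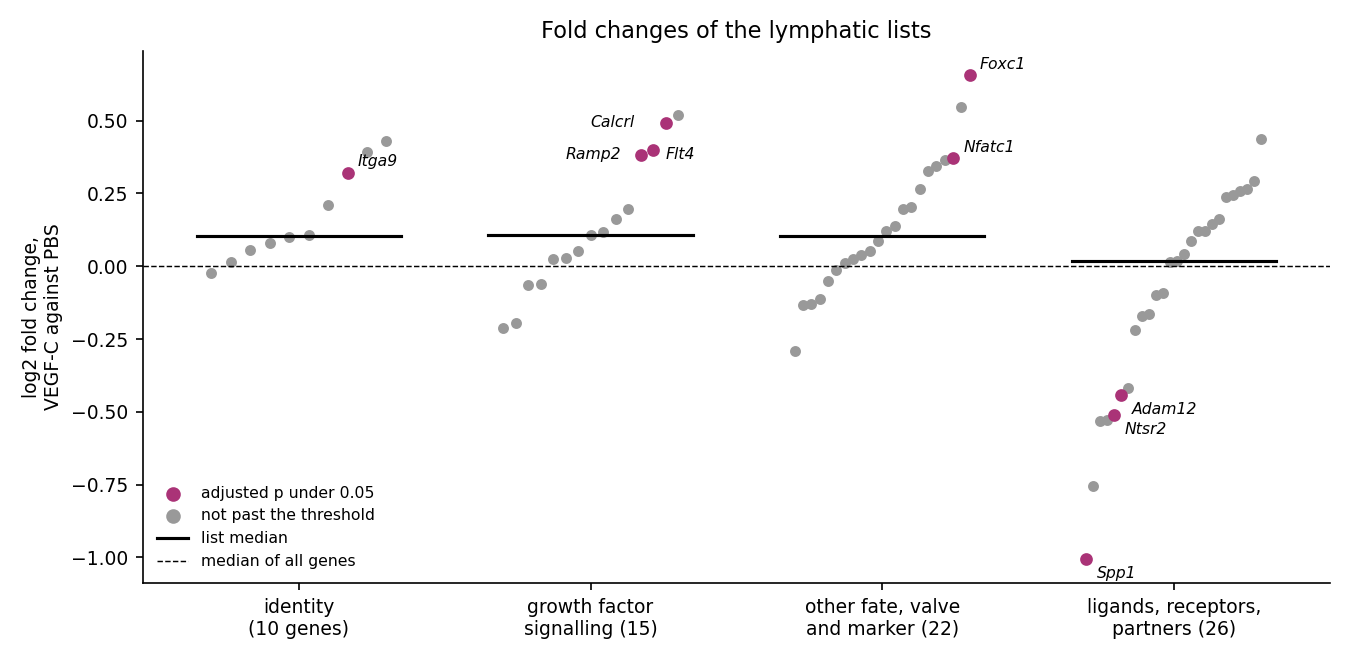
Log2 fold changes of the 10 identity genes and of the 3 lists around them, with genes past an adjusted p of 0.05 in limma coloured and named, list medians as bars and the median of all genes as a dashed line. Named genes lie above 0 in the first 3 columns and below 0 in the column of ligands, receptors and partners.

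Of 26 measured ligands, receptors and partners of the identity genes 3 fell and 0 rose (median 0.017). Spp1, which encodes osteopontin, a ligand of integrin alpha 9, had 2781, 2061, 2844 and 3305 normalized counts in PBS and 1130, 1115, 1217 and 2152 in VEGF-C, where replicate 4 lay inside the range of the controls (-1.01 ± 0.21, limma adjusted p = 0.0129). Adam12, which encodes a metalloproteinase that binds integrins, fell by 0.44 (adjusted p = 0.0181), and Ntsr2, a receptor of neurotensin, fell by 0.51 (0.0388; up to 0.0891 with 1 library out), with groups that did not overlap in either gene. Other ligands of the integrin, Tnc (-0.17 ± 0.27), Vcam1 (0.015 ± 0.12), Fn1 (-0.17 ± 0.28) and Emilin1 (-0.094 ± 0.11), did not pass. The hyaluronan synthase Has2 (-0.75 ± 0.29) and the reelin receptors Vldlr (0.29 ± 0.15) and Lrp8 (-0.42 ± 0.21) did not pass in limma, nor did the sodium pump subunit Atp1b1 (0.44 ± 0.13, adjusted p = 0.0514). For Atp1b1 the authors' deposited table gives an adjusted p of 0.01555. In these 3 lists the share called was 20%, 9.09% and 11.5%, beside 15.7% of all genes.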

How the data were processed

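RNA of 8 hearts was sequenced from stranded mRNA libraries. The submitters' processing notes list DESeq2 1.38.3, featureCounts, STAR 2.7.10a, Subread 2.0.1, Trim Galore 0.6.10 and the build GRCm39; no source used here gives the annotation or the strand setting. The deposited values are log2(x + 4), x being reads divided by 1 factor per library: 100% of values came out as whole reads (tolerance 0.01), and the factors equalled median-of-ratios factors (ratio 1). The authors' deposited table also holds a log2 fold change and an adjusted p-value per gene.

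Here limma 3.58.1 (R 4.3.3) was fitted to the deposited log2 values of all 18835 genes, with treatment as the only factor, 6 residual degrees of freedom and a variance trend; it was tested on simulated data. Fold changes on this scale understate changes of low genes. Errors are SE for fold changes and SD for levels. Groups came from the treatment labels; column numbers tie to no animal, so replicates were not paired, and p-values measure the spread between these libraries. The 10 genes and the lists were chosen with earlier results of these data known. Named were all 10 genes, the called genes of each list and the 3 genes most like Prox1, Lyve1 and Itga9; further genes were named after their values were seen. Of the list genes 1 was matched through a synonym (Tmem2 as Cemip2) and 4 had no values. GENCODE M21 (GRCm38) gave lengths for all 10 genes by ID.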

Additional observations from a re-analysis of the deposited data

Results flagged for a closer look

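In the PBS group Foxc2 had its lowest library, replicate 1, far from the other 3: its log2 value was 7.26, against 8.23 to 8.38 in the others. Fxyd6 in the same library had 11.81, against 12.93 to 12.98. In the VEGF-C group Spp1 was highest in replicate 4, at 11.07, against 10.13 to 10.25 in the others. In each case the gap, as a share of the range of the 4 libraries, was above Dixon's critical value. Of 36 groups examined (18 genes) 3 stood out in this way, where chance gives about 1 in 20.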

How the results depend on the processing

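The 10 identity genes and the 8 genes called in the lists around them were recomputed 1 by 1 under 19 alternatives, 342 values in all (other list genes only within the counts), of which 271 kept direction and side of the threshold, 43 kept direction and lost the call, and 28 turned sign, all of the latter in genes not called. With library totals the fold changes were -0.18 for Prox1, -0.083 for Lyve1, -0.14 for Pdpn, -0.11 for Reln and -0.087 for Foxc2; with upper-quartile factors -0.041 for Prox1 and -0.0011 for Pdpn; with voom and quality weights -0.0018 for Prox1, -0.081 for Lyve1, -0.013 for Pdpn and -0.029 for Reln. Leaving out 1 library gave -0.044 to 0.079 for Prox1, -0.20 to 0.27 for Lyve1, -0.095 to 0.13 for Pdpn, -0.11 to 0.28 for Reln, -0.16 to 0.22 for Foxc2, -0.20 to 0.092 for Nts and -0.074 to 0.32 for Fxyd6. Itga9 kept its call in 17 of 19.

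Counts called, with 1 library left out, were 1684 (without VEGF-C replicate 3) and 1956 (without VEGF-C replicate 1) to 2906 of all genes (2949 with all libraries), 0 to 1 identity genes, 0 to 2 for growth factor signalling, 1 to 2 for fate and valves and 2 to 4 for partners. With library totals 0 identity, 0 signalling, 1 fate and 5 partner genes were called, all of them lower. Foxc1 and Nfatc1, called as higher in the main fit, were thus not among them. Over all genes 243 were then higher and 3572 lower, against 1328 and 1621 in the main fit, and 797 and 1920 with upper-quartile factors. Signalling had 0 with upper-quartile factors and 0 without a variance trend; partners had 5 with quality weights (2 higher). The authors' statistics call 5 fate and 6 partner genes, beside 21.7% of all genes with an adjusted p-value there. Among these partner genes Itgb1, Hyal2 and Atp1b1 were higher in VEGF-C, while Spp1, Adam12 and Ntsr2 were lower. Of the signalling genes the same statistics call Flt4, Adm, Calcrl and Ramp2. The cause of these differences between settings was not tested.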

Other observations

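A lymphatic gene outside the identity group, the chemokine gene Ccl21a, chosen after its values were seen, had 4220, 5131, 8206 and 7637 normalized counts in PBS replicates 1 to 4 and 8279, 10978, 4515 and 6923 in VEGF-C replicates 1 to 4, so that PBS replicate 1 was again the lowest and VEGF-C replicate 2 the highest of the 8.

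The summed neutrophil markers ran with Pdpn and Lyve1 over the 8 libraries once group means were removed (r = 0.87 and 0.85; 0.87 and 0.77 without PBS replicate 1), and so did the mesothelial markers (0.88 and 0.79; 0.86 and 0.68). The adipocyte sum ran against Reln (-0.76, and -0.75 without PBS replicate 1) and Tbx1 (-0.70 and -0.92). The smooth muscle sum ran with Itga9 (0.75 and 0.83). Acta2, already named among the genes most like Itga9, adds most to the smooth muscle sum. The neutrophil sum also ran with Reln, Mmrn1, Foxc2, Nts, Fxyd6 and Tbx1 (0.66 to 0.80, and 0.58 to 0.80 without PBS replicate 1). Itga9 ran with the cardiomyocyte sum too (0.69, and 0.71 without PBS replicate 1). Sums of other sources named earlier are given with all libraries and then without PBS replicate 1. Resident macrophages had 0.69 and 0.51 with Lyve1, and cardiomyocytes 0.21 and 0.42 with Prox1. Platelets had 0.44 and 0.46 with Mmrn1, fibroblasts 0.39 and -0.79 with Pdpn, and neutrophils 0.21 and -0.12 with Itga9. These are descriptions over libraries that share scaling, with no test. Lymph node or tertiary lymphoid markers, which Itga9 also followed (0.82), had 3 of 6 genes called, all lower in VEGF-C, with sums of 2849 to 5457 in PBS and 933 to 2158 in VEGF-C, while lung markers (0 of 3 called) summed to 540 in VEGF-C replicate 1 and to 88.5 to 188 in the other 7 libraries.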
